A study of Mus musculus with 18 samples.

Results

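Histone H3 lysine 27 methylation in untreated mouse embryonic stem cells was compared between its mono- and trimethylated forms, H3K27me1 and H3K27me3, with 2 chromatin immunoprecipitation sequencing (ChIP-seq) libraries of each mark. These were all the untreated libraries of the 2 marks, 4 of the 18 libraries in the series, which fall into 9 groups of 2. The cells were of the E14 line, grown on gelatin in 2i/LIF medium, which holds inhibitors of GSK3 and MEK together with leukaemia inhibitory factor, with isotope-labelled or unlabelled arginine and lysine. None of the 4 libraries carried a Drosophila spike-in. H3K27me1 was precipitated with a monoclonal antibody from Active Motif and H3K27me3 with one from Cell Signaling, so the antibody and the mark cannot be told apart. Untreated libraries of H3K27me2, H3K36me2 and H3K36me3 were used to describe the same regions. The 2 H3K27me3 libraries of cells kept in DMSO for 7 days, which carried a spike-in, served as libraries that the peak lists had not used. The labels do not say whether replicates came from separate cultures, so p-values measure only the spread between these libraries.

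Polycomb repressive complex 2 (PRC2), with EZH2 or EZH1 as its catalytic subunit, adds all methyl groups to H3K27, one at a time. H3K27me3 is known as the repressive mark of CpG-rich promoters of developmental regulators in embryonic stem cells. H3K27me1 is known to lie within transcribed genes, where H3K36me3, the mark that SETD2 places during elongation, is also found.

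Values are given as levels, that is, the signal of a region divided by the library's own mean over the autosomes, so that 1 is that mean. A level compares regions within a library and says nothing of how much of either mark the cells held. The log2 difference is H3K27me1 minus H3K27me3, so values above 0 are higher in H3K27me1. The deposited tracks resolved into whole reads, at 40.7 and 33.0 M reads for H3K27me1 and 25.4 and 21.2 M for H3K27me3. A 1 kb window held on average 21.3, 17.2, 13.5 and 11.2 reads in these libraries. A single read was worth a level of 0.047, 0.058, 0.074 and 0.089. Over non-overlapping autosomal windows these reads came to 52.4, 42.4, 33.1 and 27.7 M, more than the library reads. Window reads are thus not all separate reads. Spearman's correlation between replicates over 246268 bins of 10 kb was 0.927 for H3K27me1 and 0.971 for H3K27me3, a description in which the points share library and mappability. Replicate counts varied beyond sampling error, by a factor of 4.50 for H3K27me1 and 3.09 for H3K27me3 in variance. Promoters of markers of differentiated cells carried H3K27me3 (T 11.5, Pax6 14.0, Foxa2 8.25), with Eomes at 6.25 and Sox1 lower at 2.71. Those of the pluripotency genes Pou5f1 and Sox2 were at 0.0816 and 0.0743, but Esrrb read 6.55. The bodies of Pou5f1, Nanog and Klf4 lay at percentiles 90.8, 91.7 and 90.5 of H3K36me3 over genes, Tfcp2l1 at 92.1, Zfp42 at 84.9 and Esrrb at 74.9, and the endoderm markers Gata4, Gata6 and Sox17 were not analysed here.

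The sequences below are the 250 bases before the start of 5 promoters, shown because they stand at the opposite ends of the comparison of H3K27me1 and H3K27me3. They come from RefSeq (GRCm38.p6) and run 5′ to 3′ in the direction of the gene, with CpG dinucleotides in capitals. Lrriq4 and 1700109H08Rik were the highest-ranked promoters with more H3K27me1 whose RefSeq record began at the gene start. Slc6a17 and Prok2 were the 2 promoters with the largest excess of H3K27me3 by the reported log2 difference, an order that changed with the settings. Hoxa9 was the highest-ranked Hox gene with a record that began at the gene start.
Lrriq4 (chr3:30644237-30644486, plus strand): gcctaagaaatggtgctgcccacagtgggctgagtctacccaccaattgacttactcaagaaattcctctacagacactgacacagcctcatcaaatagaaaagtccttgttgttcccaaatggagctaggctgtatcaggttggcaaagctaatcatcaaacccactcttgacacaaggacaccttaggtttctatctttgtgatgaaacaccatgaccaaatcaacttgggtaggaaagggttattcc
1700109H08Rik (chr5:3571466-3571715, plus strand): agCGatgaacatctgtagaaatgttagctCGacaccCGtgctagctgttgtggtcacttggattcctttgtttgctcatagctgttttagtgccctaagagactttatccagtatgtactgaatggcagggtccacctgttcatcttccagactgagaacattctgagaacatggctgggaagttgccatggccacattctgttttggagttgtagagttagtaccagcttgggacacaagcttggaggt
Slc6a17 (chr3:107518019-107518268, minus strand): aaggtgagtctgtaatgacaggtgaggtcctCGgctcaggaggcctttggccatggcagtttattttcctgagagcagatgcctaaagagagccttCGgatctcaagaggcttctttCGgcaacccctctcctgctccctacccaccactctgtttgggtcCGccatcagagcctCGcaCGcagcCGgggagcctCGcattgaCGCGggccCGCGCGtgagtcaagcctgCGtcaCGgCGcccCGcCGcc
Prok2 (chr6:99726393-99726642, minus strand): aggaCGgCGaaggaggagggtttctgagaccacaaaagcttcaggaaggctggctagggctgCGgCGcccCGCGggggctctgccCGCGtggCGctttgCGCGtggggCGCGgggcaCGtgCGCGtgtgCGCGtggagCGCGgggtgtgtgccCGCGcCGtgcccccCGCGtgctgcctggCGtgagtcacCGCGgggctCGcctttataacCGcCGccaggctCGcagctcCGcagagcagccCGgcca
Hoxa9 (chr6:52227371-52227620, minus strand): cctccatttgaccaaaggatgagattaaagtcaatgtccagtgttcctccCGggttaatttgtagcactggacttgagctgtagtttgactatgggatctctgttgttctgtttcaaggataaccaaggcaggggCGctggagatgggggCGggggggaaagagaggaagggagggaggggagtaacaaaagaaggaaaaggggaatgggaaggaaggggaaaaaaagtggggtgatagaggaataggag
These stretches held 0, 3, 18, 34 and 3 CpG dinucleotides, so that 1700109H08Rik and Hoxa9, from opposite ends, held the same number. The GC content was 44.4% for Lrriq4, 46.4% for 1700109H08Rik, 62% for Slc6a17, 73.6% for Prok2 and 49.6% for Hoxa9. The levels of these promoters are given with the promoter results.

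The peak lists of the 2 marks covered like amounts of the genome and were mostly apart. The deposited H3K27me1 list held 45210 autosomal peaks over 514.7 Mb, with a median length of 7.5 kb, and the H3K27me3 list held 42774 peaks over 549.1 Mb, with a median of 7 kb. The lists shared 59.1 Mb, which was 11.5% of the H3K27me1 and 10.8% of the H3K27me3 peak length, and 73.3% and 72.7% of the peaks shared no base with the other list. The peaks were called on these libraries, so the levels of each mark in its own peaks describe the lists and carry no test.

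In H3K27me1 peaks the H3K27me1 libraries stood at 2.11 and 1.88 and the H3K27me3 libraries at 0.650 and 0.590, a log2 difference of 1.68 ± 0.15 (SD, n = 2 per mark). In H3K27me3 peaks the H3K27me3 libraries stood at 3.02 and 2.90, and the H3K27me1 libraries at 0.932 and 0.995, for a difference of −1.62 ± 0.08. H3K27me1 thus lay close to its genome mean over H3K27me3 peaks as a whole. H3K27me3 lay well under its own mean in H3K27me1 peaks. The mean is not the typical window, as the median window with reads stood at 0.594 and 0.623 for H3K27me3. In windows of neither list H3K27me3 read 0.399 and 0.455 and H3K27me1 0.636 and 0.700. Each mark was thus higher in the other's peaks than there. In windows of the H3K27me1 list alone, H3K27me3 read 0.371 and 0.343. In those of the H3K27me3 list alone, H3K27me1 read 0.849 and 0.909. The H3K27me3 libraries after DMSO, on which no peak list was called, read 2.93 and 2.91 in the H3K27me3 peaks. Against the 2 H3K27me1 libraries, which that list did not use either, this was a difference of −1.60 ± 0.07 with no overlap. The exact two-sided permutation p was 0.33, the smallest that 2 against 2 libraries can give. That list was chosen for high H3K27me3 in untreated cells. The direction was thus set by the choice of windows, and the test cannot decide it. Both DMSO libraries exceeded both H3K27me1 libraries in 93.4% of the H3K27me3 peaks, which describes the list for the same reason. H3K36me3 stood at 2.73 and 2.80 in the H3K27me1 peaks and at 1.10 and 1.16 in the H3K27me3 peaks.

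**Figure D1:**
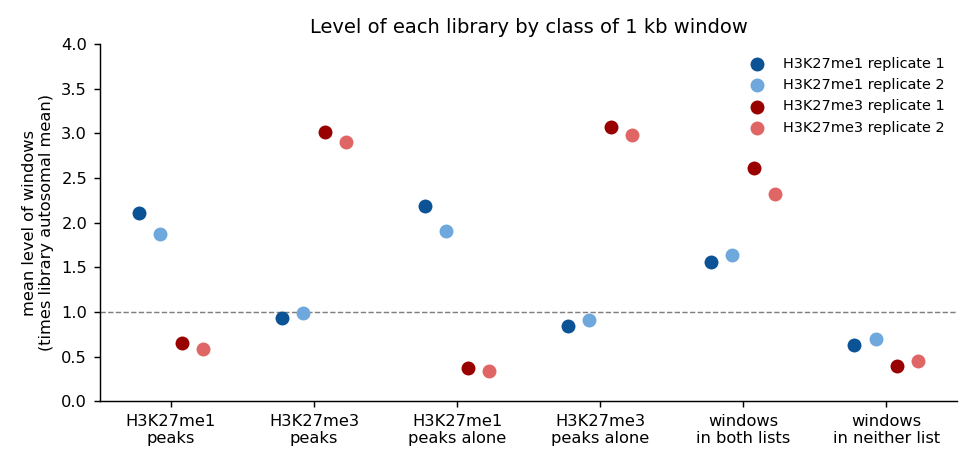
Mean level of the 4 libraries (vertical axis, times the library's autosomal mean; 1 point per library) in 6 classes of 1 kb window. H3K27me1 (blue) runs from 0.636 to 2.18 over these classes and H3K27me3 (red) from 0.343 to 3.07, and in the H3K27me3 peaks the H3K27me1 points sit next to the dashed line at 1.

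Windows in both lists made up 2.72% of the autosomal windows, or 66980 of 2462755. There, H3K27me1 read 1.56 and 1.64 and H3K27me3 read 2.61 and 2.33, so that both marks were above their mean and H3K27me3 was the higher one, by a log2 difference of −0.63 ± 0.13. Each mark was lower there than in the windows of its own list alone, where H3K27me1 read 2.18 and 1.91 and H3K27me3 read 3.07 and 2.98. The intermediate form H3K27me2 was higher in the shared windows (2.27 and 2.13) than in those of H3K27me1 alone (1.53 and 1.38) or H3K27me3 alone (1.25 and 1.31), and 96.0% of the shared windows lay in H3K27me2 peaks, against 56.1% and 47.2%. H3K36me2, at 2.58 and 2.44, was also higher there. Of 14660 shared stretches, 60.3% had both H3K27me3 libraries above both H3K27me1 libraries, and 9.30% the reverse. These shares were 96.6% and 0.402% over all H3K27me3 peaks, and 6.95% and 87.7% over all H3K27me1 peaks. The lists were called on these libraries and the share over all windows was not taken, so these are descriptions. Intergenic windows differed by 0.02 and protein-coding gene windows by 0.06, and the intergenic libraries overlapped. Both differences turned negative when the library median, taken over windows with reads, was the scale. As medians over windows the differences were 0.84 and 1.06.

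Among peaks of 3 kb or more, the log2 difference was largest in the longest peaks of either mark. H3K27me1 peaks of 30 kb or more (3139 peaks) had a median log2 difference of 3.19, against 1.99 in peaks of 3 to 10 kb, and their median H3K36me3 level was 4.12, against 1.20. H3K27me3 peaks of 30 kb or more (3697 peaks) had a median of −1.85, against −1.18 at 3 to 10 kb, with an H3K36me3 level of 1.04. The shortest H3K27me1 peaks, under 3 kb, also had a high median of 3.0, and H3K27me3 peaks under 3 kb had −1.49. Long peaks were less often free of bases shared with the other list, at 66.6% of H3K27me1 peaks of 30 kb or more against 93.1% under 3 kb, and at 47.4% against 84.5% for H3K27me3. The share of their length in common with the other list was not larger, at 4.53% against 5.58% for H3K27me1 and 10.2% against 12.4% for H3K27me3.

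The longest H3K27me1 peak was 335 kb long (mm10 chr5:139996501-140331500) and spans Mad1l1, a spindle checkpoint gene, with Nudt1 and Mrm2. The H3K27me1 libraries read 3.11 and 2.79 there, the H3K27me3 libraries 0.538 and 0.403, and the H3K36me3 libraries 4.69 and 5.23. The second (chr17:30628501-30925500) covers the axonemal dynein gene Dnah8 and Glp1r, the receptor of the incretin GLP-1, with 4.14 and 4.05 of H3K27me1 and 1.92 and 1.49 of H3K27me3, and 31.1% of it was also in the H3K27me3 list. A gene-dense peak (chr10:80538001-80798000) covers 14 genes and had 3.99 and 2.84 of H3K27me1 against 0.337 and 0.280. In all 3 regions H3K36me3 was at 4.69 or more, H3K27me2 at 1.70 or more and H3K36me2 at 1.97 or more. The region of Dnah8 and Glp1r was above the mean in all 5 untreated marks.

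The longest H3K27me3 peak, of 524 kb (chr6:113741501-114265500), spans the calcium pump gene Atp2b2 and the GABA transporter gene Slc6a11. It read 4.41 and 4.48 for H3K27me3 and 1.13 and 1.24 for H3K27me1. The second (chr8:11010501-11492000) holds the adjoining collagen IV genes Col4a1 and Col4a2 with Rab20, at 4.80 and 4.44 against 0.868 and 0.920. The next (chr4:46673501-47066000) holds the GABA-B receptor subunit gene Gabbr2 and Anks6, at 5.77 and 5.26 against 1.00 and 0.994. H3K27me1 was within 0.868 to 1.24 in all 3, near the genome mean.

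Of the 3 longest shared stretches, a pair lies close together on chromosome 9, and neither overlaps an annotated protein-coding gene. In the longer (chr9:47042501-47123500, 81 kb), H3K27me1 read 1.66 and 2.2 and H3K27me3 read 5.21 and 4.98. In the other (chr9:46923001-46988000), the values were 1.84 and 2.31 against 4.83 and 4.38. The stretch over Sfi1, a centrosomal protein gene (chr11:3127001-3200000), was at 22.5 or more in every library of the 5 untreated marks, with 33.2 and 34.9 for H3K27me1 and 33.0 and 30.1 for H3K27me3, and its difference of 0.11 was about the spread between replicates.

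**Figure D2:**
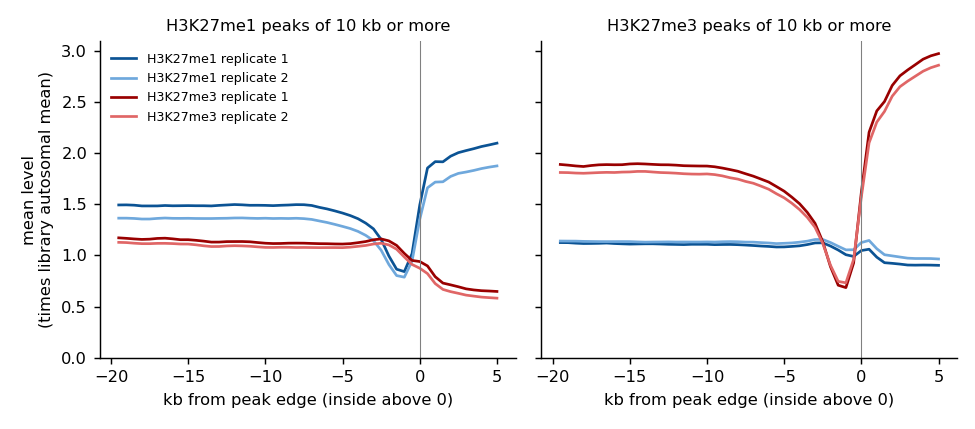
Mean level (vertical axis, times the library's autosomal mean) by distance from the edge of peaks of 10 kb or more (horizontal axis, kb, inside above 0), for 31810 edges of H3K27me1 peaks (left) and 31568 of H3K27me3 peaks (right); lines are libraries. H3K27me3 falls across the edge into H3K27me1 peaks, while H3K27me1 stays between 0.904 and 1.16 across the edge of H3K27me3 peaks.

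At the edges of H3K27me3 peaks of 10 kb or more, H3K27me3 went from 0.686 and 0.733 at 1 kb outside to 2.95 and 2.84 at 4.5 kb inside. Over the same distance H3K27me1 went from 1.01 and 1.05 to 0.906 and 0.970. At H3K27me1 peak edges, H3K27me1 went from 0.842 and 0.788 to 2.08 and 1.86, and H3K27me3 from 1.02 and 0.985 to 0.653 and 0.588. The low point of the list's own mark lies where the peak caller ended a peak and is given as a description. Farther from H3K27me3 peaks, at 10 kb outside, H3K27me3 read 1.87 and 1.80. Its low point is thus not the level of the wider surroundings.

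Bins of 10 kb were then ranked by libraries that neither list nor the contrast used. They were split into 10 groups of equal size, from the lowest to the highest. By H3K27me3 after DMSO, untreated H3K27me3 went from 0.099 in group 1 to 4.06 in group 10, as means of 2 libraries. H3K27me1 went from 1.09 to 0.981 and stayed between 0.981 and 1.09 in all of them. By H3K36me3, H3K27me1 went from 0.50 in group 1 to 2.17 in group 10. H3K27me3 went up with H3K36me3 at first, from 0.282 to 1.96 in group 8, and down to 0.655 in group 10. These are descriptions over bins that share libraries, with 23350 or 23351 bins in a group.

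**Figure D3:**
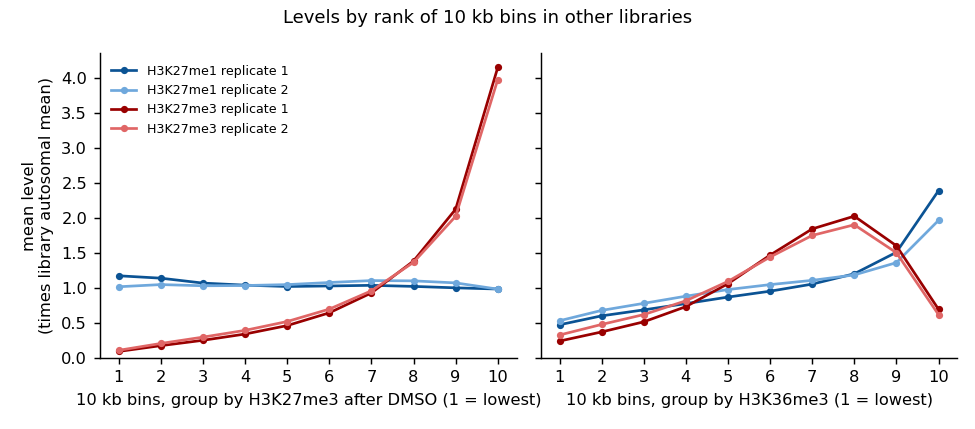
Mean level of the 4 libraries (vertical axis, times the library's autosomal mean) in 10 kb bins ranked into 10 groups by H3K27me3 after DMSO (left) or by H3K36me3 (right); each point is 1 library. H3K27me1 is nearly level across the left panel while H3K27me3 goes from 0.099 to 4.06, and on the right the marks cross between groups 4 and 5 and again between groups 9 and 10.

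Promoters, 1 kb to either side of the annotated start, were measured for the 16457 of 20665 autosomal protein-coding genes whose strand was known, and 15977 passed the filter on low values. With limma, 7379 promoters (46.2%) were higher in H3K27me1 and 4434 (27.8%) in H3K27me3, at an adjusted p under 0.05 and a log2 difference of at least 1. The called sets differed in kind. Promoters higher in H3K27me3 had median levels of 4.90 and 4.76 of that mark, with 0.846 and 0.551 of H3K27me1, and 93.6% of them had an H3K27me3 level of at least 2. Promoters higher in H3K27me1 had median H3K27me1 levels of only 1.41 and 0.841, with 0.111 and 0.0890 of H3K27me3, and 10.6% of them reached a level of 2 in H3K27me1, against 5.53% of all tested promoters. A level of 1 in H3K27me1 was reached by 60.0% of them and by 45.8% of all.

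The promoter counts depended on the H3K27me1 libraries. Replicate 1 of H3K27me1 was higher than replicate 2 at promoters, with mean levels of 1.20 and 0.842, and the gap grew with CpG content. With promoters ranked by CpG count into 5 classes of equal size, the medians were 0.870 and 0.928 in the lowest class (0 to 3 CpG) and 1.25 and 0.580 in the highest (27 to 65). The part of this gap in the promoter calls was not tested, but without replicate 1 the H3K27me1 calls numbered 3287 and made up 45.6% of all calls, against 62.5% with all libraries, and the H3K27me3 calls numbered 3927. Without replicate 2 the H3K27me1 calls were also fewer, 4982 or 57.1% of all calls, with 3751 for H3K27me3. The H3K27me3 libraries, at 1.88 and 1.89 over promoters, had no such gap. As a mean over promoters the marks differed by −0.91 ± 0.36 (SD, n = 2 per mark; exact two-sided permutation p = 0.33, the smallest possible). The library medians over promoters were instead higher in H3K27me1, by a log2 difference of 1.01. The median of the log2 differences of the tested promoters was 0.91.

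CpG content of the RefSeq record (250 bases before to 50 after the start) was available for 86.1% of tested promoters. The median was 19 CpG for promoters called higher in H3K27me1, 11 for H3K27me3, 5 for those not called and 15 over all. H3K27me3 calls were most frequent, at 43.8%, in the CpG class of 3 to 9, and least frequent, at 15.9%, in the class of 0 to 3. In the class of 27 to 65 CpG, 57.4% were called for H3K27me1 and 23.5% for H3K27me3. Another protein-coding gene spanned the start of 11.8% of promoters called for H3K27me1, against 7.17% for H3K27me3 and 9.30% of all.

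The promoters with the largest excess of H3K27me1 include those of genes known from other tissues. Phkg1 encodes the catalytic subunit of muscle phosphorylase kinase. Its promoter (mm10 chr5:129878134-129880134) read 4.21 and 3.45 for H3K27me1 and had no H3K27me3 read in either library, so that it was at least 32.5-fold higher against a floor of 3 reads over both libraries. Lrriq4, shown above without a CpG and lying inside Lrrc34, read 4.35 and 2.76 against 0 and 0, at least 28.9-fold higher. Vpreb1, part of the surrogate light chain of pre-B cells, read 2.77 and 3.28 against 0 and 0, at least 22.5-fold higher. In the H3K27me3 libraries after DMSO these promoters held reads, with levels of 0.232 and 0.538 at Phkg1, 0.406 and 0.0896 at Lrriq4 and 0.348 and 0.179 at Vpreb1. With those libraries the fitted log2 differences of Phkg1, Lrriq4 and Vpreb1 were 3.09, 3.53 and 3.14, against 5.29, 5.16 and 4.96 with the untreated ones. The others were Epp13 (6.39 and 4.70 against 0 and 0.0445), 1700109H08Rik (5.38 and 3.42 against 0.0743 and 0) and Gm4869 (5.90 and 4.47 against 0.149 and 0). With the DMSO libraries the log2 differences of Epp13, 1700109H08Rik and Gm4869 were 3.42, 3.44 and 3.70, against 5.54, 5.06 and 5.05, so all 6 had smaller differences there and the folds above hold for the untreated libraries alone. H3K36me3 levels at the 6 promoters ran from 1.74 at Vpreb1 to 9.68 at Gm4869, and H3K27me2 levels from 0.755 to 1.59.

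At the other end, Slc6a17, a vesicular amino acid transporter of neurons, read 14.7 and 14.3 for H3K27me3 and 0.517 and 0.0580 for H3K27me1 (log2 difference −5.55 ± 0.61 SE, limma adjusted p 0.000157). Prok2, a secreted prokineticin whose upstream stretch holds 34 CpG, read 11.8 and 12.3 against 0.212 and 0.116 (−5.55 ± 0.44). Hoxa9, with 3 CpG in the stretch shown, read 10.5 and 13.3 against 0.658 and 0.0870. Both H3K27me3 libraries exceeded both H3K27me1 libraries many times over in each. Map3k21, a MAP kinase kinase kinase, Vgll2, a cofactor of TEAD factors, Zfp423, a zinc finger transcription factor, and Tmem132e completed the 6, with H3K27me3 levels from 8.54 to 15.5. H3K27me2 was low at these 6 promoters, between 0.182 and 0.529.

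**Figure D4:**
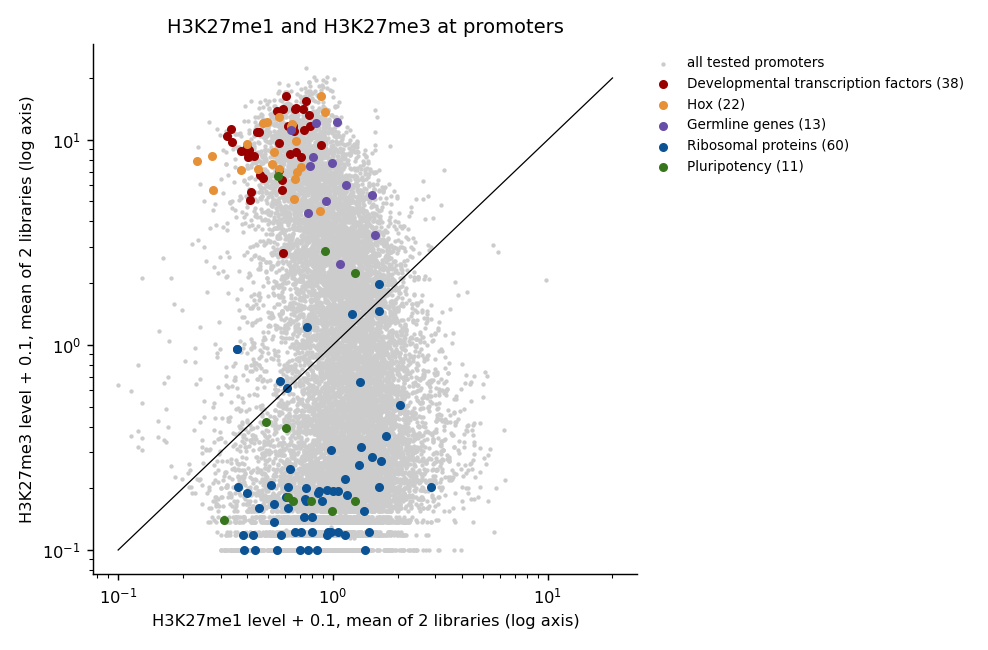
H3K27me3 against H3K27me1 level at the 15977 tested promoters (both axes logarithmic, mean of 2 libraries plus 0.1; the line marks equal levels), with 5 gene lists in colour. All 22 Hox and 38 developmental transcription factor promoters lie above the line, and most of the 60 ribosomal protein promoters lie below it.

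The measured promoters of developmental transcription factors all stood on the H3K27me3 side. All 22 Hox promoters, of the 39 Hox genes, and all 38 promoters of 50 listed developmental transcription factors passed the test towards H3K27me3, against 27.8% of all promoters, with median log2 differences of −4.22 and −4.41 against 0.91 over all. Without H3K27me1 replicate 2 the counts were 21 and 37, and the medians −3.59 and −3.90. Hoxb8 read 7.58 and 8.01 for H3K27me3 and 0.235 and 0.0290 for H3K27me1, and Hoxc4, at the other end of the Hox list, 3.42 and 5.38 against 1.13 and 0.406. Pax7, a regulator of muscle and neural crest, read 10.5 and 12 against 0.353 and 0.116 (−5.18 ± 0.49 SE, limma adjusted p 0.000157). En1, a midbrain regulator, read 10.9 and 9.70 against 0.353 and 0.0870. The smallest differences were those of the homeobox gene Msx1 (5.94 and 5.25 against 0.635 and 0.319) and the neural gene Sox1 (2.08 and 3.34 against 0.588 and 0.377).

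Of 28 listed signalling ligands 18 were measured, and 15 promoters were called for H3K27me3, 2 for H3K27me1 and 1 was not called, where 27.8% and 46.2% of all promoters had these calls. Wnt3 and Wnt4 had H3K27me3 levels of 15.3 and 15.7, and of 17.0 and 17.1, with H3K27me1 at 0.823 or less. The exceptions were the ligands Fgf4 and Nodal, both known to be expressed in embryonic stem cells. Fgf4 read 1.90 and 0.957 for H3K27me1 against 0.0743 and 0.178, and Nodal 0.799 and 0.348 against 0 and 0.0890. Neither was called without H3K27me1 replicate 1. Wnt6 had a difference of 0.04 and was not called. With the H3K27me3 libraries after DMSO, the list held 1 promoter called for H3K27me1.

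Germline genes, several of which act in meiosis or in piRNA silencing, were on the H3K27me3 side at their measured promoters, while their bodies were called on both sides. All 13 promoters, of 14 listed genes, were called for H3K27me3, against 27.8% of all, with a median log2 difference of −2.55, among them Rpl10l, which is also in the ribosomal list. With the H3K27me3 libraries after DMSO 11 were called, without H3K27me1 replicate 1 there were 10, and without replicate 2 there were 9. Tdrd1, a piRNA pathway gene, read 10.9 and 11.3 against 0.729 and 0.348, and Slc25a31, a testis ATP carrier, 12.5 and 11.5 against 0.917 and 0.551. The smallest differences were at Stk31 (1.93 and 2.80 against 1.29 and 0.667) and at Sycp3 of the synaptonemal complex (3.94 and 2.71 against 1.43 and 1.51). Over the 12 tested bodies, 4 were called for H3K27me1 and 2 for H3K27me3, against 49.9% and 21.4% of all bodies. The body of Hormad1, a meiotic chromosome axis gene, read 2.17 and 1.71 for H3K27me1 and 0.0757 and 0.202 for H3K27me3, while its promoter read 0.893 and 0.435 against 3.34 and 5.20. The median over bodies, 0.44, turned to −0.04 when the library median was the scale, and 4 bodies were then called for H3K27me1 and 4 for H3K27me3.

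Pluripotency genes differed among themselves. Of 18 listed genes 12 were measured, and all but Zfp42 passed the filter. Of these 11 promoters, 5 were called for H3K27me1, close to the 46.2% of all promoters, and 2 for H3K27me3, against 27.8% of all. The H3K27me1 count was 0 without H3K27me1 replicate 1 and 2 without replicate 2, and with the H3K27me3 libraries after DMSO the counts were 3 and 3. Tfcp2l1, a transcription factor of naive pluripotency, read 1.72 and 0.609 for H3K27me1 and 0.149 and 0 for H3K27me3, and Klf4 read 1.22 and 0.551 against 0.111 and 0. The annotated starts of Esrrb, a nuclear receptor (6.39 and 6.72 of H3K27me3 against 0.564 and 0.348), and Utf1 (2.86 and 2.67 against 0.705 and 0.928) went the other way. Within gene bodies, 6 of 9 were called for H3K27me1, against 49.9% of all bodies, and 0 for H3K27me3 by limma, against 21.4%. The H3K27me3 count was 1 without H3K27me1 replicate 1, with the libraries after DMSO or with the library median as the scale. In several of them the H3K27me1 level itself was below the genome mean. Pou5f1, which encodes OCT4, read 0.639 and 0.325 over its body with an H3K36me3 level of 7.43, Nanog 0.581 and 0.543 with 7.68, and Zfp42 0.346 and 0.235 with 6.14. Nr5a2 (1.93 and 1.72) and Tfcp2l1 (2.28 and 1.53) were above the mean.

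Ribosomal protein promoters, expressed in all cells, were called for H3K27me1 in 45 of 60 tested, of 61 measured and 80 listed, against 46.2% of all promoters, with a median log2 difference of 2.19, and 1, the testis gene Rpl10l, for H3K27me3, against 27.8% of all. That call was lost without H3K27me1 replicate 1 or replicate 2. The median H3K27me1 levels were 0.964 and 0.435, below the mean, against 0.0743 and 0.0445 of H3K27me3, and the count was 19 without H3K27me1 replicate 1, 36 without replicate 2 and 33 with the H3K27me3 libraries after DMSO. The H3K27me3 medians lie under the filter of 0.1. Members with so little H3K27me3 could enter the test only through H3K27me1, which helps to set this split. Rps2 stood out with 3.17 and 2.35 against 0.0743 and 0.133, and Rpl35a read 1.58 and 1.04 against 0 and 0. The bodies were called for H3K27me1 in 34 of 36, against 49.9% of all.

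Genes of the Polycomb machinery were called on both sides. Of 12 listed PRC2 subunits and partners, 10 promoters were measured. Of these, 6 were called for H3K27me1 and 1 for H3K27me3, against 46.2% and 27.8% of all. Their median H3K27me3 levels, 0.111 and 0.0667, lay near the filter, so members under it could enter the test only through H3K27me1. Among the bodies of these genes 9 and 1 were called, against 49.9% and 21.4%. Without H3K27me1 replicate 1, or with the H3K27me3 libraries after DMSO, 2 promoters were called for H3K27me1. Ezh2 read 2.05 and 1.57 for H3K27me1 over its body against 0.0307 and 0.0311 (3.86 ± 0.19 SE, limma adjusted p 1.1e-08), and Eed 1.80 and 1.23 against 0.0418 and 0.0259. The exception was Phf19, a Polycomb-like partner that binds H3K36me3, with 9.21 and 8.32 of H3K27me3 at its promoter against 1.36 and 0.377 and with 4.15 and 4.60 over its body against 1.52 and 0.905. Of 14 measured promoters of 19 listed PRC1 genes, 7 were called for H3K27me1 (1 without H3K27me1 replicate 1; 4 with the libraries after DMSO) and 2 for H3K27me3 (4 with the libraries after DMSO), the first close to the 46.2% of all promoters. Of 14 PRC1 bodies, 8 were called for H3K27me1, 3 for H3K27me3 and 3 not, near the 49.9% and 21.4% of all bodies. Pcgf5, a PRC1 core subunit, read 10.7 and 10.3 of H3K27me3 at its promoter against 0.987 and 0.232, and Bmi1 read 3.23 and 3.42 against 0.917 and 0.319. The body of Cbx8, a chromodomain subunit that binds H3K27me3, read 8.11 and 9.0 against 0.724 and 0.371, although its promoter was not called. Among H3K36 methyltransferases, Setd2 alone of 5 was measured, as was none of the H3K27 demethylases, and its body read 2.36 and 1.85 of H3K27me1 against 0.0655 and 0.0621.

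Sensory receptor families, with H3K36me3 medians of 0.139 or less, were below the mean in both marks. Of 934 olfactory receptor promoters measured, 919 were tested, and 391 were called for H3K27me1, close to the 46.2% of all promoters, and 76 for H3K27me3, against 27.8% of all, with median levels of 0.823 and 0.870 against 0.334 and 0.445. Of 320 vomeronasal receptor promoters measured, 220 were tested, and 127 and 1 were called, against 46.2% and 27.8% of all, with medians of 0.353 and 0.435 against 0.0743 and 0.0890. Those H3K27me3 medians equal 1 read per window and lie under the filter of 0.1. Members with so little H3K27me3 could enter the test only through H3K27me1, so the filter helps to set this split. Without H3K27me1 replicate 1 or replicate 2, the H3K27me1 calls numbered 172 and 164 for olfactory and 48 and 47 for vomeronasal receptors. With the library median as the scale they numbered 211 and 72, and the H3K27me3 calls of olfactory receptors 110. Vmn2r2 was the highest vomeronasal receptor, at 4.00 and 2.76 against 0.149 and 0.0890, and Vmn1r1, with 0.776 and 0.609 against 1.60 and 1.69, the lowest. Olfr94 had the largest excess of H3K27me3 among olfactory receptors, with 6.98 and 9.03 against 0.729 and 0.406, and Olfr1055 (1.72 and 1.16 against 0 and 0) the opposite. Zinc finger genes named Zfp were called for H3K27me1 at 227 of 288 tested promoters (301 measured), for H3K27me3 at 30, against 46.2% and 27.8% of all promoters, and without H3K27me1 replicate 1 the first count was 126. Zfp799 (2.16 and 1.86 against 0 and 0) and Zfp423 (0.729 and 0.0580 against 14.9 and 14.7) were its extremes. The median H3K27me3 levels at the Zfp promoters, 0.111 and 0.0890, lay near the filter. Members under it could likewise enter the test only through H3K27me1.

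Gene bodies, from 1 kb after the start to the end of the gene, gave counts that depended less on any 1 library. Of 13720 bodies tested, 6850 (49.9%) were higher in H3K27me1 and 2937 (21.4%) in H3K27me3 by the same limma test, with a median log2 difference of 0.99 over all, and leaving out any 1 library gave between 6804 and 6858, and between 2883 and 3012. With the library median as the scale the counts were 6101 and 4001. Bodies not called in the reported fit had log2 differences between −0.9999 and 0.9996. Every body past the size cutoff thus also passed the adjusted p. The cutoff alone set the reported counts, and their stability is that of a size cutoff. Bodies called for H3K27me1 had medians of 2.2 and 1.79 of that mark and 0.173 and 0.158 of H3K27me3, with an H3K36me3 level of 4.11, against 1.33 in bodies called for H3K27me3. The promoter and body of a gene mostly went together. Of the genes called for H3K27me1 at the promoter and tested in the body, 83.9% (5398) had the same call there, which was 79.5% of the bodies so called. For H3K27me3 the figure was 58.0% (2271), or 77.4% of the bodies so called. The calls were opposite in 131 and 207 genes.

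H3K27me1 followed H3K36me3 over gene bodies. Bodies were ranked by H3K36me3 into 5 groups of equal size. From group 1 to group 5, H3K27me1 medians were 0.708, 1.02, 1.40, 2.06 and 3.07 in replicate 1 and 0.812, 1.04, 1.27, 1.72 and 2.33 in replicate 2. The H3K27me3 medians in replicate 1 were 0.620, 2.13, 1.05, 0.300 and 0.206, highest in group 2. The share called for H3K27me1 went from 23.0% in group 1 and 20.3% in group 2 to 89.1% in group 5, and for H3K27me3 it was 50.0% in group 2 and 2.19% in group 5. Within group 3 gene length went with the contrast as well. There, where H3K36me3 levels were alike (2.13, 2.15 and 2.16), the shortest, middle and longest bodies (medians of 7.34, 26.4 and 88.4 kb) were called for H3K27me1 in 28.6%, 42.6% and 59.9% and for H3K27me3 in 49.5%, 30.2% and 12.1%. In group 1 the H3K27me1 calls did not follow length in that way, at 26.3%, 29.4% and 13.2% from the shortest to the longest bodies, with median log2 differences of 0.24, 0.28 and −0.04. In group 5, 71 of 2744 bodies had an H3K27me1 level below the genome mean, and 61 of these were among its 914 shortest bodies, whose median length was 4.74 kb.

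**Figure D5:**
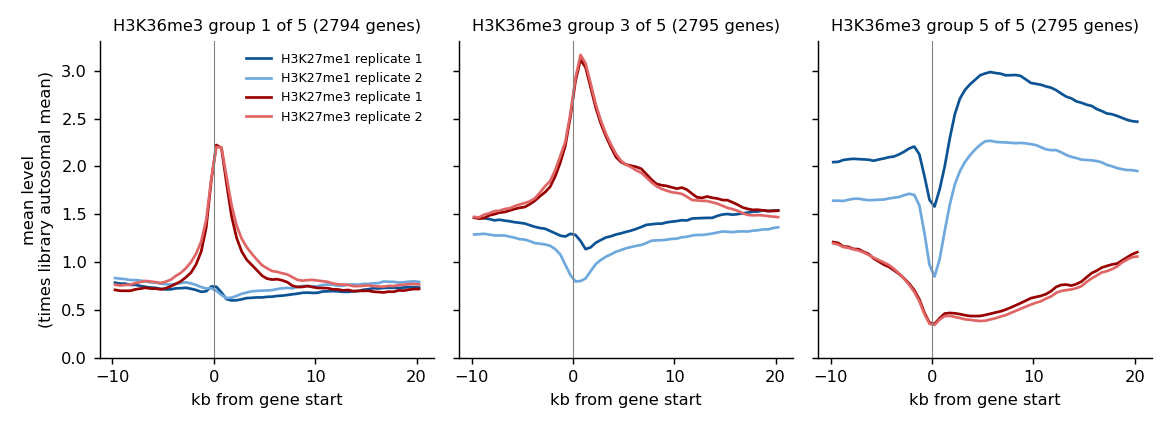
Mean level (vertical axis, times the library's autosomal mean) by distance from the gene start (horizontal axis, kb) for genes in groups 1, 3 and 5 of the 5 groups by body H3K36me3; lines are the 4 libraries. In group 5 H3K27me1 dips at the start and peaks a few kb inside the gene, with replicate 1 above replicate 2, while in group 1 H3K27me3 peaks at the start.

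Around the start of the genes with the most H3K36me3, H3K27me1 read 1.58 and 0.849 at 0.25 kb and 2.97 and 2.26 at 5.25 kb, while H3K27me3 read 0.355 and 0.344, and then 0.448 and 0.387. In group 1, H3K27me3 read 2.22 and 2.2 at 0.25 kb and 0.827 and 0.935 at 5.25 kb, and H3K27me1 read 0.742 and 0.699, then 0.637 and 0.703. The dip of H3K27me1 at active starts was deeper in replicate 2.

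The bodies with the largest excess of H3K27me1 had H3K36me3 levels above the genome mean. Nubp2, an iron-sulphur cluster assembly factor, read 7.69 and 5.12 for H3K27me1 against 0.124 and 0.0296 for H3K27me3. Mlx, a partner of the glucose-sensing MondoA and ChREBP factors, read 5.22 and 3.88 against 0.0849 and 0. The H3K27me3 libraries after DMSO read 0.215 and 0.410 over Mlx, and with them its log2 difference was 3.52, against 5.08 with the untreated ones. Dpp7, a lysosomal peptidase, read 6.72 and 4.82 against 0.0186 and 0.178. The others were Tmem199 (4.83 and 3.09), Rps19bp1 (4.50 and 2.75) and Eif1ad (4.11 and 2.84), with H3K27me3 at 0.0495 or less. With the DMSO libraries the difference went from 5.00 to 3.32 for Dpp7 (levels of 0.492 and 0.470), from 4.89 to 2.84 for Rps19bp1 (0.425 and 0.388), from 5.02 to 3.84 for Tmem199, from 4.85 to 3.81 for Eif1ad and from 5.23 to 4.71 for Nubp2. H3K36me3 over these 6 bodies was between 6.30 and 11.7.

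The 6 bodies with the largest excess of H3K27me3 were all of developmental transcription factors. Nkx1-1 read 20.3 and 17.5 for H3K27me3 and 0.721 and 0.174 for H3K27me1 (−5.32 ± 0.38 SE, limma adjusted p 6.75e-08). Olig2, of the oligodendrocyte and motor neuron lineages, read 15.9 and 14.9 against 0.658 and 0.116. Lhx1 read 13.8 and 12.6 against 0.552 and 0.169, and Neurod2 13.6 and 16.1 against 0.639 and 0.139. Hoxb8 (9.87 and 11.3 against 0.347 and 0.160) and Dlx2 (12.2 and 12.4 against 0.360 and 0.251) followed. H3K27me2 was between 0.145 and 0.295 in these bodies, below its mean.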

How the data were processed

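Reads were trimmed with Trim Galore 0.4.2, aligned with Bowtie2 2.2.6.2, and peaks were called with SICER, per the submitters' processing notes, which name the builds mm10 and dm3. The deposited tracks hold log2(1 + RPM) of 1 kb windows every 500 bases, per the file headers and values, and the deposited DMSO tracks carry another factor per library, which the division by the library mean removes. The deposited peak lists give a score whose scale is not given in the sources used here. Values were linearised and divided by the library's autosomal mean. Windows belonged to a peak at 500 shared bases, promoters were the start ± 1000 bases, and bodies ran from 1000 bases after the start in genes of at least 3000 bases. Levels plus a pseudocount of 0.1 were tested on the log2 scale with limma 3.58.1 (R 4.3.3), where the mean level was at least 0.1, with Benjamini-Hochberg adjustment over all features. A feature low in 1 mark could pass this filter through the other mark alone. A call needed an adjusted p under 0.05 and a log2 difference of at least 1. On simulated data for the promoter comparison, 31 of 200 promoters changed 4-fold were called (15940 promoters tested), 199 of 200 changed 16-fold (15958) and 7465 of 8000 changed 4-fold (15956). Unchanged promoters were called 0, 4 and 134 times. The simulated counts had a fixed dispersion and no gap between the replicates of a mark. The H3K27me1 libraries did have such a gap at promoters, so these rates need not hold for the real data. The simulated sizes were raised after a first simulation of smaller changes in few promoters gave no calls, so small changes in few promoters would be missed. Named genes were the 6 called with the largest difference in each direction, with no overlap of the libraries, a level of at least 2 in the higher mark and not above 4 in all 5 untreated marks, and the 2 highest and lowest of each list. The members and lists were chosen with earlier results of these data known. The classes by CpG count and by gene length, the share of starts inside another gene and the rule for printed sequences were chosen after the values were seen. Printed sequences needed a RefSeq record within 1 base of the gene start. Intervals and floors cover counting error only and take window reads as separate reads, which not all of them are. Alternatives changed the scale, the pseudocount, the filter, the summary, the promoter width, the test and the libraries.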

Additional observations from a re-analysis of the deposited data

Results flagged for a closer look

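Chromosome X was left out of the comparison and held reads in the libraries of both marks. Its levels were not adjusted for the number of copies of the chromosome, and no input library was used to set a background. Its level relative to the autosomal mean was 0.40 in H3K27me1 replicate 1 and 0.399 in replicate 2, and 0.186 in H3K27me3 replicate 1 and 0.213 in replicate 2. These values rest on 1.46, 1.18, 0.429 and 0.410 M window reads, and neither library of one mark overlapped those of the other.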

How the results depend on the processing

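These libraries have no spike-in, so the scale is a choice. The library median was taken over the autosomal windows that held reads. Windows without reads made up 5.80% and 6.07% for H3K27me1 and 15.3% and 15.4% for H3K27me3. A median that includes them was not taken. The library median as the scale moved the median of all promoters by −0.43 and of all bodies by −0.44. Under it the log2 difference was 1.14 in H3K27me1 peaks, −2.16 in H3K27me3 peaks, −1.17 in shared windows, −1.45 at promoters, −0.53 in intergenic windows, −0.48 in gene windows and −0.39 over bodies, the last 3 reversed, and H3K27me1 made up 54.0% of promoter calls (62.5% as reported) and 60.4% of body calls (70.0%). As medians over windows or promoters, the differences were 2.67 in H3K27me1 peaks, −1.45 in H3K27me3 peaks, 1.30 over bodies and 1.01 at promoters, which reversed. With the H3K27me3 libraries after DMSO they were 1.44 in H3K27me1 peaks, −1.32 at promoters and −0.0060 over bodies, the last reversed, and H3K27me1 made up 54.1% of promoter calls. In peaks with a score at or above the median they were 2.07 and −1.76. The cause of these shifts was not tested.

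Leaving out each library in turn gave 1.60 to 1.77 in H3K27me1 peaks, −1.67 to −1.57 in H3K27me3 peaks, −0.71 to −0.54 in shared windows and −1.16 to −0.65 at promoters; a mark left with 1 library was assumed to vary like the other. Intergenic windows ranged from −0.025 to 0.059, reversing to −0.007 without H3K27me3 replicate 1 and to −0.025 without H3K27me1 replicate 2. The promoter calls ranged from 3287 to 6329 for H3K27me1 and from 3708 to 3927 for H3K27me3, and in these fits no call took the opposite direction. Replicate numbers are shared by the marks, but 2 pairs cannot show pairing: deviations of same-numbered libraries correlated at 0.056 over promoters and 0.060 over bodies. With a replicate block, 7723 and 4519 promoters and 6850 and 2937 bodies were called. Values under alternative settings for the leading comparisons were sorted by their distance from the reported value. Of these, 74 stayed within 1.5 times (counts of calls) or 1 SD (log2 differences), 11 moved further and 1 reversed. With 2 libraries per mark, leaving out 1 shifts a log2 difference by less than that SD whatever the levels. No promoter was high in every untreated mark, so leaving out such promoters changed nothing. The 74 thus include values that could not have moved further, and the tally does not measure robustness. Among low windows, 1 read is worth a level of up to 0.089, so smaller differences are not resolved.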

Other observations

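Whole chromosomes differed little in the balance of the marks. The log2 difference was highest on chromosome 16 (0.30; H3K27me1 1.03 and 1.07, H3K27me3 0.848 and 0.859) and chromosome 3 (0.21), and lowest on chromosome 8 (−0.26; 0.950 and 0.978 against 1.16 and 1.15). Chromosome 11, one of the most gene-dense with 13.2 annotated protein-coding genes per Mb, was above the mean in both marks, at 1.25 and 1.15 of H3K27me1 and 1.3 of H3K27me3 in both libraries. In windows of neither list H3K27me1 was the higher on every autosome, by 0.49 to 0.76. Over all such windows the difference was 0.65, and 0.11 with the library median as the scale. These windows are those left over by lists called on the same libraries. The autosomes share those libraries as well, so this is a description.

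Along 10 kb bins ranked by H3K27me2, the form between the 2 marks, into 10 groups, H3K27me1 was highest in group 10, where it read 1.69, while H3K27me3 was highest in group 8 (1.63) and read 1.47 in group 10.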
